A study of Mus musculus with 26 samples.

Results

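Myelin lipid synthesis was followed through 7 genes, Ugt8a, Fa2h, Gal3st1, Cers2, Aspa, Elovl1 and Elovl7, in nuclear and cytoplasmic RNA of mouse brain. The genes were chosen by name for their known roles, with earlier results of these data known. Each was found as 1 row of a table of 27502 rows through its Ensembl identifier. All 7 were at their highest mean level in sorted oligodendrocyte nuclei. All 7 were higher there than in sorted neuronal nuclei, and 6 of 7 were higher than in sorted astrocyte nuclei.

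Myelin is the stacked membrane that oligodendrocytes wrap around axons, and it is rich in galactosylceramide and its sulfated form, sulfatide. Their ceramide backbone carries very long fatty acids, many of them hydroxylated, so the synthesis needs elongases, a hydroxylase, a ceramide synthase, a galactosyltransferase and a sulfotransferase in turn. In the brain, neurons make most N-acetylaspartate, and oligodendrocytes split it into aspartate and acetate, a carbon source for lipids.

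RNA was sequenced from sorted nuclei, from presort nuclei taken before the sort, and from cytoplasm of whole brain, in 26 libraries that form 7 groups. Sorted oligodendrocyte nuclei and the presort nuclei of the same line came from mice with Tg(Cnp-EGfp/Rpl10a)JD368Htz/J on B6.FVB. Sorted astrocyte nuclei and their presort nuclei came from mice with Tg(Aldh1L1-EGfp/Rpl10a)JD130Htz/J, and sorted neuronal nuclei and their presort nuclei from mice with Tg(Snap25-EGfp/Rpl10a)JD362Htz/J, both also on B6.FVB. Each of these 6 groups held 4 libraries, 2 from males and 2 from females. The 2 cytoplasmic libraries came from 1 male of the Aldh1L1 line (replicate 1) and 1 female of the Cnp line (replicate 2). All mice, the sources of presort and cytoplasmic RNA included, carried a green fluorescent protein fused to Rpl10a, and all were 6 to 12 weeks old with no treatment named. The promoter named in each transgene drives the fusion in the cells where it is active, and how the nuclei were sorted is not stated in the labels.

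Total counts ranged from 134357 to 3239445 in sorted libraries, from 147826 to 3274488 in presort libraries, and were 3885312 and 4461568 in cytoplasm. A count of 3 was worth between 0.926 and 22.3 CPM (1 CPM is 1 in 1000000 counts of a library) in sorted libraries and between 0.916 and 20.3 CPM in presort libraries. Sorted oligodendrocyte replicate 36 stood apart: 7674 genes had a count there, whereas replicates 10, 12 and 34 had 16223 to 16575, and the fluorescent protein had 0 counts in it. That protein was low in the whole group, at 37.7 to 52.9 CPM in replicates 10, 12 and 34, against 57.5 to 96.2 CPM in presort nuclei of the same line, while sorted astrocyte and neuronal nuclei had 327.5 to 847 CPM. Results that rest on replicate 36 are given with and without that library. The 12 oligodendrocyte markers summed to between 31240 and 39840 CPM in sorted oligodendrocyte nuclei, between 1182 and 2292 CPM in sorted astrocyte nuclei and between 1337 and 1779 CPM in sorted neuronal nuclei. None of the 12 was at 0 throughout a group. Relative to sorted neuronal nuclei, sorted oligodendrocyte nuclei had higher levels of 12 of 12 oligodendrocyte markers, 1 of 4 precursor markers, 0 of 10 astrocyte markers, 1 of 5 tested microglial, 2 of 4 tested endothelial, 2 of 5 choroid plexus and ependymal, and 4 of 5 mural and fibroblast markers, while 5 of 9 neuronal markers were lower. Of all genes tested in that comparison, 12.4% were higher and 10.7% lower. The part of other cell types in the results below was not tested.

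Per kilobase of merged exons (GENCODE M21, GRCm38), the order of the members in sorted oligodendrocyte nuclei was led by Fa2h, with a median of 308.2 CPM per kilobase. Cers2 followed at a median of 152.8, Elovl1 at 108.3, Aspa at 93.7, Ugt8a at 89.1, Elovl7 at 57.9 and Gal3st1 at 44.1 CPM per kilobase. Fa2h ranked first in 3 of 4 libraries and second in replicate 36, where Elovl1 reached 576.7 CPM per kilobase against 100.2 to 113.7 in the other 3 libraries. The range of Fa2h lay above those of all other members except Elovl1, and each other pair of neighbours in the order overlapped. Which regions the authors counted is not stated in the labels, and nuclear RNA holds introns, so the scale is approximate. In sorted neuronal nuclei the order was different, with Cers2 first at a median of 11 CPM per kilobase, in a range that overlapped that of Elovl1 (8.16), and Gal3st1 last at 0.738.

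In GRCm38 coordinates, Ugt8a lies on the minus strand at chr3:125865271-125938619, Fa2h on the minus strand at chr8:111345135-111393824 and Aspa on the minus strand at chr11:73304992-73329596. On the plus strand are Gal3st1 at chr11:3983636-3999326, Cers2 at chr3:95314791-95323599, Elovl1 at chr4:118428093-118432953 and Elovl7 at chr13:108214404-108285683. Exons of Cers2 overlap exons of Setdb1 on the opposite strand over 75 bases, and Cers2 also overlaps exons of the antisense gene 6330562C20Rik over 144 bases. Elovl1 overlaps exons of Cdc20 over 53 bases. The kit as described does not mark strand, so reads from these stretches cannot be assigned by strand. In all, Setdb1 had 402 counts in the sorted oligodendrocyte libraries, against 395 in sorted astrocytes and 721 in sorted neurons, while Cers2 had 5204 counts in sorted oligodendrocytes, 986 in sorted astrocytes and 402 in sorted neurons. Cdc20 had 14 counts in the sorted oligodendrocyte libraries, 8 in sorted astrocytes and 4 in sorted neurons.

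Promoter sequences are shown for 4 members: Ugt8a and Aspa, whose windows have the highest and the lowest share of G or C among the members, and Cers2 and Elovl1, the members most alike over the libraries. The windows of Aspa and Cers2 lie inside the GENCODE gene models, at RefSeq starts downstream of the model's first base. Each runs 5′ to 3′ on the strand of its gene, from 250 bases before to 50 after the start (RefSeq, GRCm38.p6). Capitals mark GC boxes (GGGCGG on either strand), 2 of which overlap in Ugt8a.
Ugt8a, minus strand, chr3:125938603-125938902: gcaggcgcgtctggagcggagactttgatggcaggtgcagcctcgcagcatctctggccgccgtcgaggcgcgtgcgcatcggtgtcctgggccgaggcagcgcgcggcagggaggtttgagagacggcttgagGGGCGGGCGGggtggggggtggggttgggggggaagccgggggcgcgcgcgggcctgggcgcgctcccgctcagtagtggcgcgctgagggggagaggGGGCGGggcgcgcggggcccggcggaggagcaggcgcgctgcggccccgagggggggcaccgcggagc
Aspa, minus strand, chr11:73324588-73324887: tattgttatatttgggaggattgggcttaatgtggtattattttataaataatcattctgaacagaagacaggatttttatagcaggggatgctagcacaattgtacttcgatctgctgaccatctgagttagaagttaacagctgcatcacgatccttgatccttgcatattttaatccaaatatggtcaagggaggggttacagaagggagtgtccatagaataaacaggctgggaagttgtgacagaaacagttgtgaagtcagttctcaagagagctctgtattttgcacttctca
Cers2, plus strand, chr3:95314940-95315239: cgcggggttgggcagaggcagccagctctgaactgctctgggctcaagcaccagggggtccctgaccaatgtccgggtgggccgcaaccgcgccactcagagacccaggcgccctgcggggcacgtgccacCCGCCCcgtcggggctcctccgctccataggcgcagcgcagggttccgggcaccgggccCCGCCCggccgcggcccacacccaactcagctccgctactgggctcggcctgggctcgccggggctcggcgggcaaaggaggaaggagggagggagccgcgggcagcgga
Elovl1, plus strand, chr4:118427843-118428142: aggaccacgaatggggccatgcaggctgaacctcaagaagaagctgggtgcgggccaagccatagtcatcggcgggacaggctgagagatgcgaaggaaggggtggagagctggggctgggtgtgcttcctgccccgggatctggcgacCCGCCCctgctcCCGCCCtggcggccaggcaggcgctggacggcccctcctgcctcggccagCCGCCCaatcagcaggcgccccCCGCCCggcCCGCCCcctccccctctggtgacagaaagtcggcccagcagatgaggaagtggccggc

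These windows differed widely in base composition. The Ugt8a window held 40 CG pairs and 78.3% G or C, Cers2 30 pairs and 75% and Elovl1 20 pairs and 70.7%, whereas that of Aspa held 2 pairs and 39%. Cers2 and Elovl1 each have another RefSeq start, not shown, whose windows held 6 pairs each and 54.3% and 59% G or C. The median over all 32851 RefSeq windows of this length was 7 CG pairs and 52.7% G or C. GC boxes were found 3 times in the Ugt8a window, 2 times in Cers2, 5 times in Elovl1 and 0 times in Aspa, and 35.7% of all windows hold at least 1. An E-box (CANNTG) was found in each of the 4, with 4 matches in Aspa and 1 in each of the other 3, and in 72.3% of all windows. The letters ACAAAG or ACAATG, as in SOX sites, occur on either strand in 28.6% of all windows, in none of the 4 shown and in 2 of the 10 windows of the 6 members matched, both of Gal3st1 and overlapping. The letters CTGGCAC or CTGGTAC, searched as a short form of the Myrf site, occur in 7.1% of all windows and in none of the same 10. Fa2h had no matched window. Such matches describe letters in these windows and not binding.

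Of the enzymes that attach the galactose and modify it, Ugt8a was higher in sorted oligodendrocyte nuclei than in both other sorted types, and Gal3st1 was higher than in neurons. Ugt8a, the ceramide galactosyltransferase that makes galactosylceramide, had 443, 281, 791 and 366 CPM in the sorted oligodendrocyte libraries (replicates 10, 12, 34 and 36). In sorted astrocyte nuclei (replicates 6, 8, 30 and 32) it had 3.84, 8.98, 7.44 and 6.48 CPM, and in sorted neuronal nuclei (replicates 2, 4, 26 and 28) 5.28, 4.59, 6.64 and 4.58 CPM. Every oligodendrocyte library thus lay above every other sorted library, while the astrocyte and neuronal ranges overlapped, and astrocyte replicate 30 rests on 1 count. The log2 fold change of Ugt8a was 6.85 ± 0.50 (SE) against neurons and 6.35 ± 0.50 against astrocytes (edgeR quasi-likelihood test, adjusted p = 1.77e-07 and 6.11e-07). In these bulk libraries, fewer cells of a type and less RNA per cell cannot be told apart.

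Gal3st1, the sulfotransferase that turns galactosylceramide into sulfatide, was the least even member. It had 147.6, 114, 65.9 and 6.86 CPM in sorted oligodendrocyte nuclei, against 24.3, 0, 0 and 0 CPM in sorted astrocyte nuclei and 3.01, 4.18, 0 and 0 CPM in sorted neuronal nuclei. The low oligodendrocyte value is replicate 36, with 11 counts, and the high astrocyte value is replicate 6, with 57 counts, so the oligodendrocyte and astrocyte ranges overlapped while the oligodendrocyte and neuronal ranges did not. Zero counts in the 2 female neuronal libraries allow up to 1.25 and 1.14 CPM, and in astrocyte replicates 8, 30 and 32 up to 1.17, 22.3 and 0.926 CPM, for counting error only. Gal3st1 was higher than in neurons by 5.78 ± 1.49 on the log2 scale (adjusted p = 0.00995; 6.48 without neuronal replicate 4; adjusted p = 0.185 with females only), and its difference from astrocytes, 3.60 ± 1.36, did not pass (adjusted p = 0.0827). Without replicate 36 the astrocyte comparison gave 3.96 and passed (adjusted p = 0.00699), and without astrocyte replicate 6 it passed as well (adjusted p = 0.00398). It also passed with no filter on low counts (adjusted p = 0.0289), with males only (0.025) and when all 24 nuclear libraries shared 1 fit (0.0174).

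The enzymes that shape the ceramide itself were both higher in sorted oligodendrocyte nuclei, with a larger difference for the hydroxylase. Fa2h, which adds the hydroxyl group to the fatty acids of myelin galactolipids, had 899, 955, 856 and 1630 CPM in sorted oligodendrocyte nuclei. Its values were 9.38, 5.47, 29.8 and 8.03 CPM in sorted astrocyte nuclei and 19.6, 15.03, 7.89 and 4.20 CPM in sorted neuronal nuclei. The highest oligodendrocyte value was again replicate 36, and the highest astrocyte value, in replicate 30, rests on 4 counts. The oligodendrocyte libraries all lay above the others, and the log2 fold changes were 7.03 ± 0.66 against neurons and 7.14 ± 0.69 against astrocytes (adjusted p = 2.01e-06 and 2.87e-06).

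Cers2, the ceramide synthase that prefers very long acyl chains, had 532, 469, 591 and 669.5 CPM in sorted oligodendrocyte nuclei, 53.7, 116, 149 and 168 CPM in sorted astrocyte nuclei and 20.7, 43.0, 37.8 and 58.3 CPM in sorted neuronal nuclei. All oligodendrocyte values were above all others, and the spread among them was small, with a mean of 565 ± 85.6 CPM (SD, n = 4). The log2 fold change was 4.29 ± 0.48 against neurons and 2.53 ± 0.45 against astrocytes (adjusted p = 1.06e-05 and 0.000652). Of the members that passed in both comparisons, Cers2 had the lowest log2 fold change in each with all libraries.

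Both elongases were higher in sorted oligodendrocyte nuclei, and the size of 1 difference depended on a single library. Elovl1, which lengthens saturated and monounsaturated very long chains, had 281, 309.9, 273 and 1572 CPM in sorted oligodendrocyte nuclei, against 44.3, 97.6, 112 and 152 CPM in sorted astrocyte nuclei and 15.8, 33.4, 22.0 and 22.5 CPM in sorted neuronal nuclei. The value of 1572 CPM is replicate 36, and even the other 3 libraries lay above all astrocyte and neuronal libraries. Against neurons Elovl1 was higher by 5.38 ± 0.76 on the log2 scale with all libraries and by 3.91 without replicate 36 (adjusted p = 0.000102 and 3.72e-07). Against astrocytes it was higher by 3.09 ± 0.69 and by 1.61 without replicate 36 (adjusted p = 0.00408 and 0.00186). Its mean in sorted oligodendrocyte nuclei was 609 ± 642.5 CPM (SD, n = 4) with replicate 36 and 288 ± 19.4 CPM (SD, n = 3) without it.

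Elovl7, an elongase of saturated long chains, had 178, 159, 313 and 287 CPM in sorted oligodendrocyte nuclei. It had 9.38, 14.8, 22.3 and 25 CPM in sorted astrocyte nuclei and 4.14, 7.93, 12.4 and 9.15 CPM in sorted neuronal nuclei. The oligodendrocyte libraries were all above the others, and the astrocyte and neuronal ranges overlapped, with 3 counts behind the value of astrocyte replicate 30. The log2 fold change was 5.26 ± 0.56 against neurons and 4.03 ± 0.54 against astrocytes (adjusted p = 6.09e-06 and 5.86e-05).

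Aspa, the aspartoacylase that frees acetate from N-acetylaspartate, had 661, 455, 766 and 221.5 CPM in sorted oligodendrocyte nuclei. In sorted astrocyte nuclei it had 12.8, 35.9, 59.5 and 21.6 CPM, and in sorted neuronal nuclei 5.28, 5.01, 3.32 and 11.4 CPM. The 3 types formed 3 separate ranges, with the lowest astrocyte library just above the highest neuronal one. Aspa was higher in oligodendrocytes by 6.70 ± 0.60 on the log2 scale against neurons and by 4.35 ± 0.54 against astrocytes (adjusted p = 1.09e-06 and 3.22e-05).

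**Figure D1:**
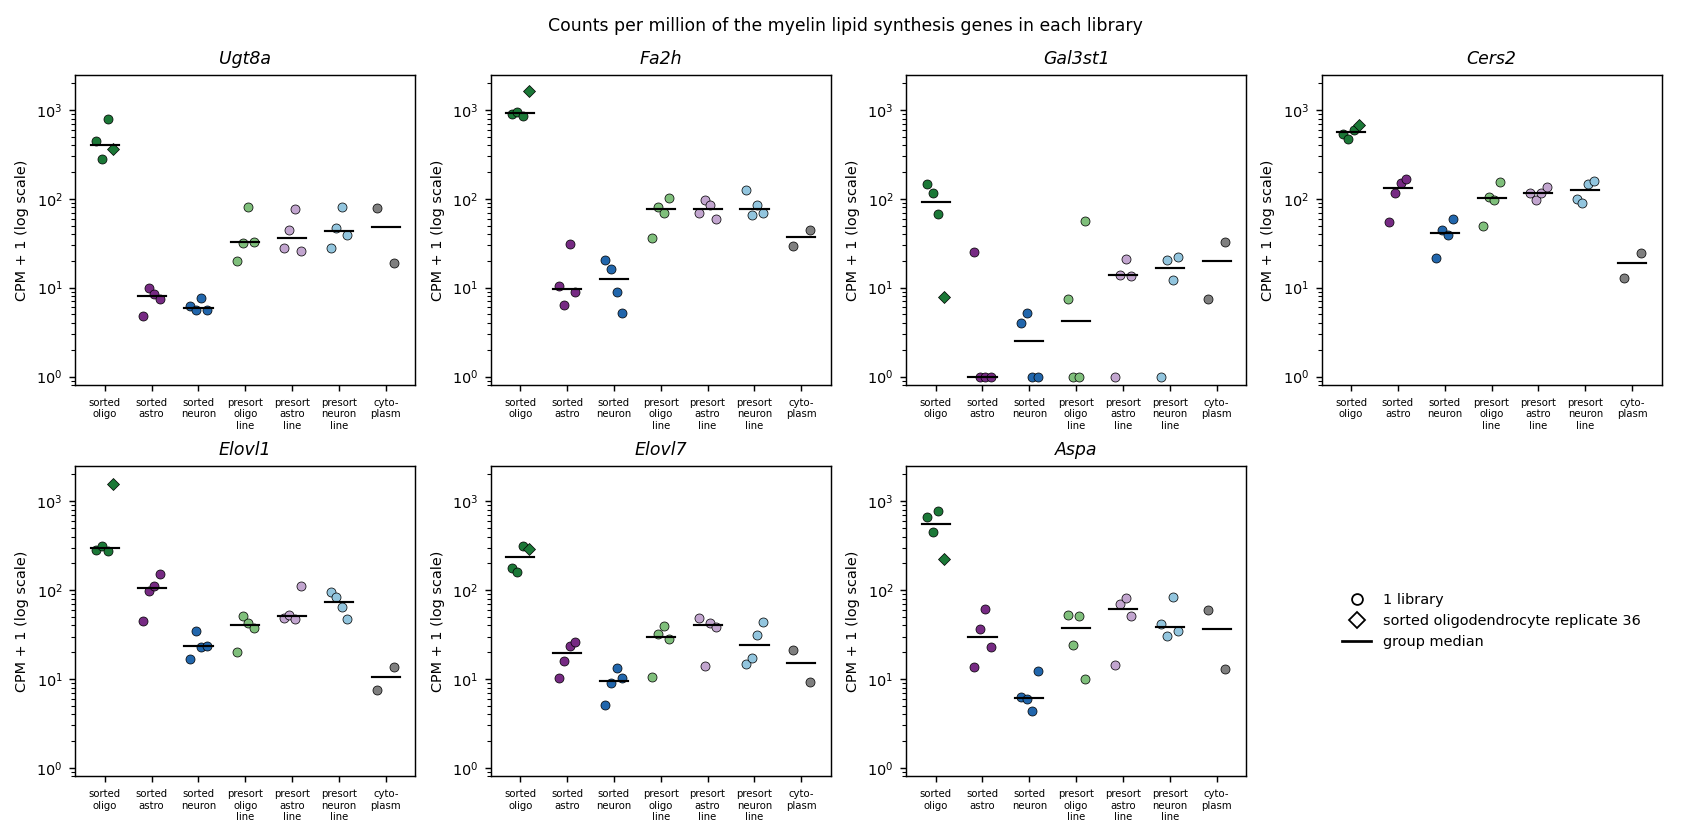
CPM plus 1 (log axis) of each member in each of the 26 libraries, by group, with the group median as a line and sorted oligodendrocyte replicate 36 as a diamond. The sorted oligodendrocyte libraries lie above every other library for 6 members, and Gal3st1 is at 0 in 3 of 4 sorted astrocyte and 2 of 4 sorted neuronal libraries.

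Against sorted neuronal nuclei 7 of 7 members were higher, where 12.4% of the 13029 genes tested were higher, and none of the 7 overlapped with the neuronal range, where 7.41% of genes lay entirely above it. The median log2 fold change of the members was 5.78, against -0.157 over all genes tested. Against sorted astrocyte nuclei 6 of 7 were higher, where 7.49% of genes were, and 6 of 7 did not overlap, where 6.08% of genes did so. The median here was 4.03 for the members and -0.108 for all genes tested. All 7 passed the filter on low counts, and since oligodendrocyte libraries could carry a gene through it, these counts are a description. Without replicate 36, 7 of 7 members passed in each of the 2 comparisons, where 18.8% of genes were higher than in neurons and 11.7% higher than in astrocytes.

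Astrocyte and neuronal nuclei differed from each other for 3 members. With all libraries, these fold changes were smaller than those of oligodendrocyte nuclei. Without oligodendrocyte replicate 36, Elovl1 stood at 2.30 between astrocytes and neurons, against 1.61 between oligodendrocytes and astrocytes. Aspa was higher in sorted astrocyte nuclei by 2.35 ± 0.52 on the log2 scale (adjusted p = 0.00363), Cers2 by 1.77 ± 0.44 (adjusted p = 0.00804) and Elovl1 by 2.29 ± 0.67 (adjusted p = 0.023). These were 3 of 7 members, where 11.4% of genes were higher, and 2 of them, Aspa and Elovl1, did not overlap between groups, where 15.1% of genes lay above the neuronal range. Without oligodendrocyte replicate 36, which shares the fit, 4 of 7 were higher, where 20.6% of genes were. For Cers2, astrocyte replicate 6, at 53.7 CPM, was below neuronal replicate 28, at 58.3 CPM. The call on Elovl1 was lost in 5 of the 12 fits that left out 1 library each, with adjusted p up to 0.0978 (neuronal replicates 2, 26 and 28, astrocyte replicates 8 and 32). Elovl7 stood at 1.23 ± 0.50 (adjusted p = 0.106, and 0.0183 without oligodendrocyte replicate 36), Ugt8a at 0.49 ± 0.44 (adjusted p = 0.54) and Fa2h at -0.10 ± 0.57 (adjusted p = 0.946). For Gal3st1 the fitted difference, 2.19 ± 1.39 (adjusted p = 0.347), rests on astrocyte replicate 6, since the other 3 astrocyte libraries had 0 counts.

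Other markers moved with this comparison. The 5 choroid plexus and ependymal markers summed to 509, 4730, 6981 and 6190 CPM in the sorted astrocyte libraries, against 44.0 to 94.6 CPM in sorted neuronal nuclei, and 5 of 5 were higher. The 5 mural and fibroblast markers summed to 297.7 to 441.7 CPM in sorted astrocyte nuclei, against 7.93 to 17.9 CPM in sorted neuronal nuclei, and 4 of 5 were higher. In replicate 6, where the choroid plexus and ependymal sum was lowest, Cers2, Elovl1 and Aspa were also at their lowest of the 4 astrocyte libraries. So were Ugt8a and Elovl7, which were not called between astrocytes and neurons, whereas Fa2h and Gal3st1 were not. Of the 12 oligodendrocyte markers, 0 were higher in sorted astrocyte than in sorted neuronal nuclei and 0 lower. The part of these markers in the differences of Cers2, Elovl1 and Aspa was not tested.

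**Figure D2:**
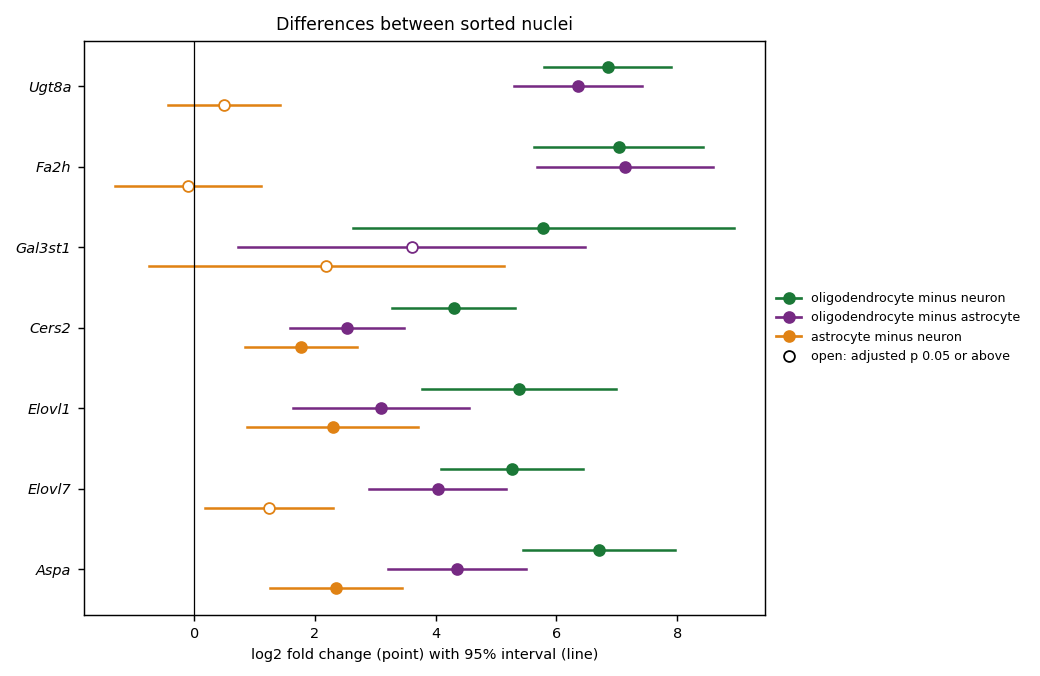
Log2 fold changes between sorted types (points) with 95% intervals (lines), with open points where the adjusted p was 0.05 or above. Both comparisons of oligodendrocyte nuclei lie to the right for all 7 members, from 2.53 for Cers2 to 7.14 for Fa2h, and Gal3st1 has the widest intervals. Without oligodendrocyte replicate 36, which is included here, that range ran from 1.61 for Elovl1 to 6.885 for Aspa.

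The presort nuclei of the same line show how the sort moved each member away from the mixed nuclei of the brain. In the oligodendrocyte line 6 of 7 members were higher after the sort, where 5.12% of 9520 genes were higher, and 6 of 7 did not overlap, where 6% of genes lay above the presort range. Without replicate 36, 7 of 7 were higher, where 16.7% of genes were. Ugt8a had 281 to 791 CPM in the sorted libraries given above and 19.1, 30.8, 80.4 and 31.9 CPM in the presort libraries of this line (replicates 9, 11, 33 and 35), and was higher after the sort by 4.08 ± 0.58 on the log2 scale (adjusted p = 0.00218; 4.71 without presort replicate 33). Fa2h had 856 to 1630 CPM after the sort and 35.1, 80.8, 68.9 and 100.1 CPM before it, and was higher after it by 4.67 ± 0.60, or by 4.04 without replicate 36 (adjusted p = 0.00166 and 3.91e-06). Each of these presort values rests on few reads, with 6 to 21 counts for Ugt8a and 11 to 22 for Fa2h in a presort library.

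Cers2 had 469 to 669.5 CPM in the sorted libraries of the oligodendrocyte line and 47.8, 104, 95.8 and 154.7 CPM in the presort libraries, and was higher after the sort by 3.15 ± 0.52 (adjusted p = 0.00461). Aspa had 221.5 to 766 CPM after the sort and 51.0, 23.1, 49.8 and 9.10 CPM before it, and was higher after it by 4.40 ± 0.58 (adjusted p = 0.0017). Elovl7 had 159 to 313 CPM after the sort and 9.56, 30.8, 38.3 and 27.3 CPM before it, and was higher after it by 3.81 ± 0.62 (adjusted p = 0.00425). The sorted and presort ranges of these 3 genes were separate.

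In the oligodendrocyte line Elovl1 had 273 to 1572 CPM after the sort and 19.1, 50.04, 42.1 and 36.4 CPM before it, and was higher after it by 5.02 ± 0.92, or by 3.33 without replicate 36 (adjusted p = 0.00822 and 9.58e-06). Gal3st1 had 6.86 to 147.6 CPM after the sort and 6.38, 0, 0 and 54.6 CPM before it, where the highest value comes from 12 counts in replicate 35, and its ranges overlapped. Its difference of 2.85 ± 1.18 did not pass (adjusted p = 0.168), and without replicate 36 it was 3.33 and passed (adjusted p = 0.00365), as it did with males only (5.63, adjusted p = 0.000826) and with no filter on low counts (adjusted p = 0.0492). The 12 oligodendrocyte markers were also all higher after this sort, with a median log2 fold change of 3.90, against 4.08 for the members and -0.0723 over all genes tested.

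In the other lines no member was called higher after the sort. Sorted neuronal nuclei were below their presort nuclei for 5 of 6 members tested, where 5.1% of 11024 genes were lower, and 6 of 6 did not overlap, where 9.13% of genes lay below the presort range. Ugt8a was lower by 3.04 ± 0.42 on the log2 scale, with the sorted libraries at 5.28, 4.59, 6.64 and 4.58 CPM and the presort libraries at 27.3, 45.7, 79.4 and 38.4 CPM (adjusted p = 0.000379). Aspa fell by 2.76 ± 0.49 (adjusted p = 0.00253), Fa2h by 2.76 ± 0.44 (adjusted p = 0.00114), Elovl1 by 1.52 ± 0.33 (adjusted p = 0.00983) and Cers2 by 1.51 ± 0.35 (adjusted p = 0.0149). Elovl7 stood at -1.46 ± 0.50 (adjusted p = 0.104, and 0.0467 with sorted and presort libraries of consecutive numbers as blocks), and Gal3st1 was below the filter, with 18 counts in all sorted and 14 in all presort libraries of the neuron line. In this sort 12 of 12 oligodendrocyte markers were lower as well, with a median log2 fold change of -3.26 and a marker sum between 1337 and 1779 CPM in sorted and between 5449 and 6572 CPM in presort nuclei. The call on Cers2 was lost without presort replicate 25 or 27, and that on Elovl1 without presort replicate 1 (adjusted p up to 0.0703 and 0.0698). The call on Elovl1 was also lost in the fit of all 24 nuclear libraries (-1.50, adjusted p = 0.211), with males only (0.118) and with females only (0.106). With males only the calls on Ugt8a (adjusted p = 0.0691), Aspa (0.0779) and Cers2 (0.203) were lost as well, and 1.14% of genes were lower.

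The sort of astrocyte nuclei divided the members. Ugt8a and Fa2h were lower after it, with log2 fold changes of -2.65 ± 0.46 and -2.89 ± 0.42 (adjusted p = 0.000123 and 1.81e-05), which were 2 of 7 members, where 15.2% of 11026 genes were lower and 18.6% lay entirely below the presort range. The call on Ugt8a was lost with males only (-2.12, adjusted p = 0.0795). Of the 8 fits that left out 1 library each, Ugt8a passed the filter on low counts in 4 and kept its call in those. Ugt8a had 3.84 to 8.98 CPM after that sort and 27.1, 43.4, 76.0 and 25.2 CPM before it (replicates 5, 7, 29 and 31). Fa2h had 5.47 to 29.8 CPM after it and 67.7, 95.4, 83.7 and 58.7 CPM before it, so both genes had separate ranges. Cers2 averaged 122 ± 50.1 CPM in sorted and 115 ± 15.9 CPM in presort nuclei (SD, n = 4 each), with a log2 fold change of 0.27 (adjusted p = 0.624) and a 95% interval from -0.42 to 0.96. Elovl1 had a mean of 101 ± 44.3 CPM after the sort, against 63.7 ± 30.3 CPM before it (SD, n = 4 each), and 0.92 ± 0.39 on the log2 scale (adjusted p = 0.0877), which passed without sorted replicate 6, without presort replicate 31 and with consecutive numbers as blocks (0.90, adjusted p = 0.0443). Aspa stood at -0.92 ± 0.45 (adjusted p = 0.139, and 0.043 without presort replicate 5), Elovl7 at -0.82 ± 0.44 (adjusted p = 0.183) and Gal3st1 at -0.72 ± 0.98 (adjusted p = 0.666). With females only, where both sorted libraries had 0 counts, Gal3st1 was lower after the sort (adjusted p = 0.000645). Of 11 oligodendrocyte markers tested, 10 were lower after this sort, and the choroid plexus and ependymal markers were higher for 4 of 4 tested. Their part in these values was not tested.

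**Figure D3:**
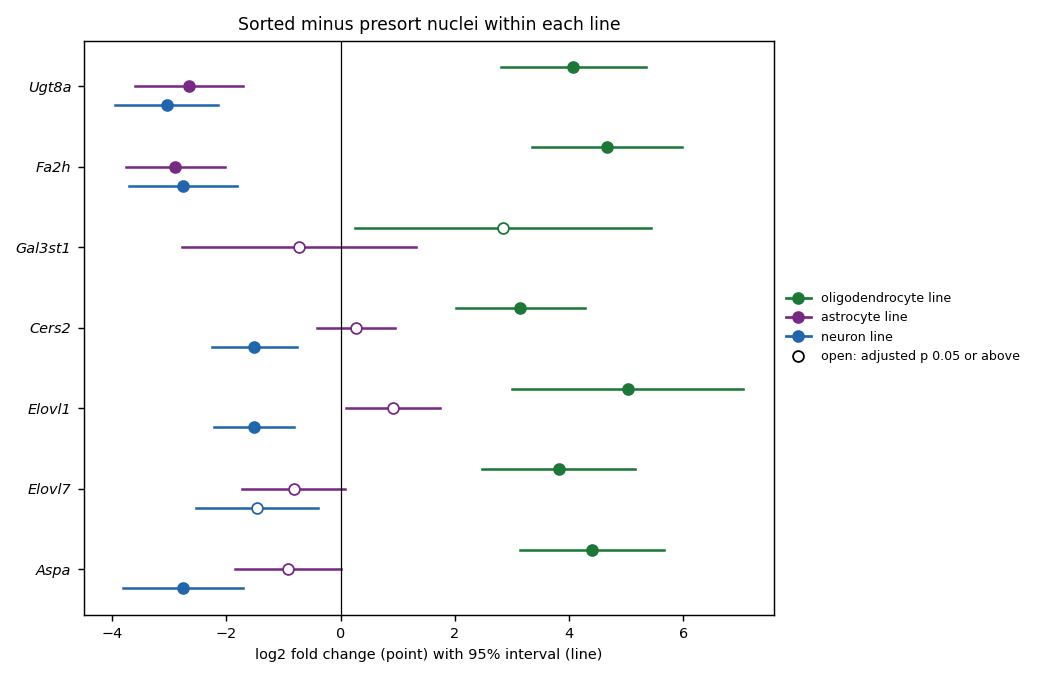
Log2 fold changes of sorted over presort nuclei within each mouse line (points) with 95% intervals (lines), with open points where the adjusted p was 0.05 or above. The oligodendrocyte line lies to the right for every member, from 2.85 for Gal3st1 to 5.02 for Elovl1. Without sorted oligodendrocyte replicate 36, which is included here, that range ran from 2.76 for Cers2 to 4.52 for Aspa. The neuron line lies to the left for the 6 members tested. In the astrocyte line Cers2 and Elovl1 lie at or right of 0 while the other 5 lie to the left.

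The difference between lines was tested directly, as the difference of their sort effects in 1 fit of all 24 nuclear libraries. Between the oligodendrocyte and neuron lines 7 of 7 members differed, where 8.81% of 12171 genes had a larger effect in the oligodendrocyte line, with log2 differences from 4.67 for Cers2 to 7.44 for Fa2h. Between the oligodendrocyte and astrocyte lines 6 of 7 differed, where 7.01% of genes did, from 2.91 for Cers2 to 7.52 for Fa2h, and Gal3st1, at 3.60 ± 1.73, did not pass (adjusted p = 0.194). Without sorted astrocyte replicate 6, the only one of its group with counts, Gal3st1 passed against the astrocyte line (adjusted p = 0.00354), without presort oligodendrocyte line replicate 35 it stood at 6.14 (adjusted p = 0.053), and with consecutive numbers as blocks at 5.65 (adjusted p = 0.176). Gal3st1 was the weakest of the 7 against the neuron line, at 5.603 ± 1.86 (adjusted p = 0.0381), and lost its call in 10 of the 24 fits that left out 1 library each, with adjusted p up to 0.0937. That call was also lost with DESeq2 (5.49, adjusted p = 0.121) and with consecutive numbers as blocks (6.27, adjusted p = 0.0739). These comparisons share the sorted and presort oligodendrocyte libraries with those above.

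Before the sort, no difference between the 3 lines was detected in these genes. Of the 5 members tested among presort nuclei, 0 differed between lines at an adjusted p of 0.05 in edgeR, 0 at an unadjusted p of 0.05 (lowest 0.0717, for Elovl1) and 0 with DESeq2, in a comparison in which 0% of 6049 genes were called by edgeR. Their levels nevertheless spread within each line: over the 12 presort libraries Ugt8a ran from 19.1 to 80.4 CPM and Fa2h from 35.1 to 126.1 CPM. These values rest on 147826 to 313720 counts in 11 of the 12 libraries.

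Presort nuclei held more Cers2 and Elovl1 RNA, as a share of all counts, than cytoplasm. Cers2 averaged 113 CPM over the 12 presort libraries, against 11.9 and 23.7 CPM in the 2 cytoplasmic libraries, and was higher in nuclei by 2.12 ± 0.41 on the log2 scale (adjusted p = 0.000219). Elovl1 averaged 57.6 CPM in presort nuclei, against 6.50 and 12.6 CPM in cytoplasm, and was higher in nuclei by 2.03 ± 0.50 (adjusted p = 0.00191). These were 2 of the 6 members tested, where 20.6% of 7728 genes were higher in nuclei, and the same 2 did not overlap with cytoplasm, where 22.3% of genes lay above it. In the lines of the cytoplasmic libraries alone, the differences were 2.07 for Cers2 and 1.85 for Elovl1 (adjusted p = 0.00163 and 0.012). Set against the male cytoplasm alone they were 2.53 for Cers2 and 2.42 for Elovl1, and against the female cytoplasm alone 1.89 and 1.82. With 1 cytoplasmic library the spread comes from presort libraries only, so these last values have no replicate check in cytoplasm.

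The 2 cytoplasmic libraries differed from each other for the other members too, as they did for Cers2 and Elovl1. Ugt8a had 77.3 CPM in the male cytoplasm and 18.02 CPM in the female one, Aspa 58.5 and 11.8 CPM, and Elovl7 19.9 and 8.24 CPM, so each was 2 or more times as high in the male library. Gal3st1 was the other way round, with 6.50 CPM in the male and 31.4 CPM in the female cytoplasm, and Fa2h had 28.2 and 43.8 CPM. Against these, the presort nuclei gave -0.75 ± 0.48 for Ugt8a (adjusted p = 0.205), -0.27 ± 0.55 for Aspa (adjusted p = 0.703), 0.40 ± 0.53 for Elovl7 (adjusted p = 0.552) and 0.56 ± 0.36 for Fa2h (adjusted p = 0.202). The sign for Ugt8a, Aspa and Elovl7 depended on which cytoplasmic library was kept. Fa2h kept its sign, at 0.77 against the male and 0.48 against the female cytoplasm alone. Set against the male cytoplasm alone, the difference was -1.44 for Ugt8a, -0.99 for Aspa and -0.14 for Elovl7, and against the female cytoplasm alone 0.99 for Ugt8a, 1.64 for Aspa and 1.46 for Elovl7, again with no replicate in cytoplasm. Gal3st1 was below the filter here. Sex and line differ together between the 2 cytoplasmic libraries, so their parts cannot be told apart.

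Markers of other cells also differed between presort nuclei and cytoplasm. The 5 endothelial markers summed to between 98.8 and 847 CPM in presort nuclei, against 2.69 and 9.27 CPM in cytoplasm, and 5 of 5 were higher in nuclei. Of the 9 neuronal markers 6 were lower in nuclei, and of the 12 oligodendrocyte markers 4 were lower and 0 higher. Of all genes tested, 20.6% were higher and 29.8% lower in nuclei, so the oligodendrocyte marker count that was lower is near the general share. Their part in the differences of Cers2 and Elovl1 was not tested.

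**Figure D4:**
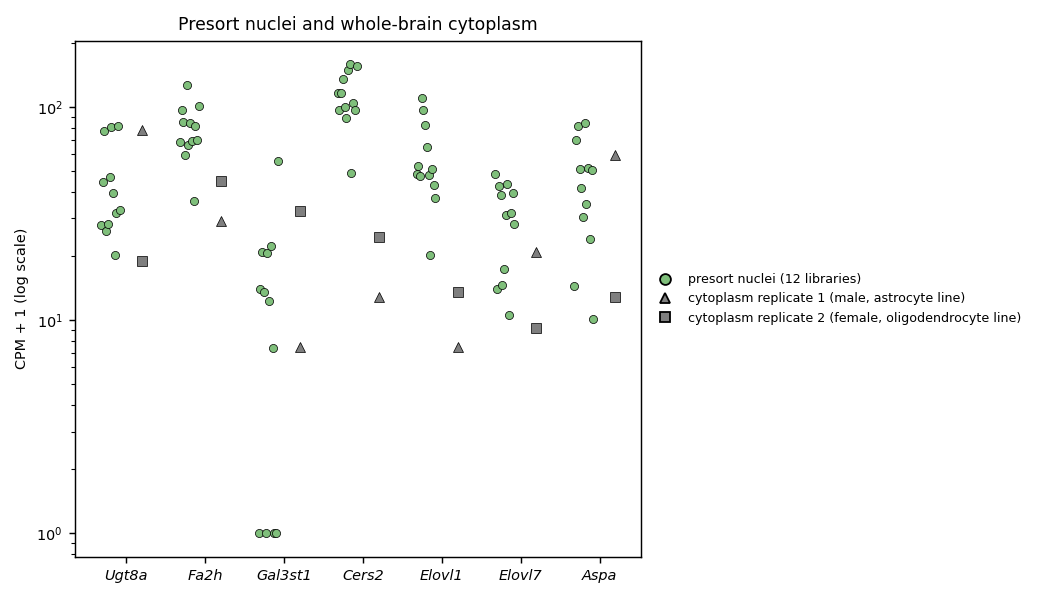
CPM plus 1 (log axis) of each member in the 12 presort nuclear libraries (circles, left of each pair) and the 2 cytoplasmic libraries (triangle and square, right). Cers2 and Elovl1 are lower in both cytoplasmic libraries than in every presort library, whereas the 2 cytoplasmic values lie on either side of most presort values for Ugt8a and Aspa.

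Sex made no called difference in sorted nuclei. With cell type as a covariate, 0 of 7 members passed between males and females in edgeR, where 0.0461% of genes did, and 0 passed with DESeq2. At an unadjusted p of 0.05 there were 3: Gal3st1 (3.23 ± 1.06, male minus female), Elovl7 (-0.97 ± 0.32) and Cers2 (-0.70 ± 0.30), all with an adjusted p of 0.876. Gal3st1 had 147.6 and 114 CPM in male and 65.9 and 6.86 CPM in female sorted oligodendrocyte nuclei, so male values were above female ones in that type. In the labels every male nuclear library has a number up to 12 and every female nuclear library one from 25 upward, so sex and numbering cannot be told apart in nuclei.

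The wider pathway was read through a list of 47 other genes of sphingolipid, fatty acid and N-acetylaspartate metabolism. Between sorted oligodendrocyte and neuronal nuclei 9 of 44 tested were higher and 3 lower, where 12.4% of all genes were higher and 10.7% lower, with a median log2 fold change of -0.125, against -0.157 over all genes tested. Without replicate 36 these counts were 15 and 7, where 18.8% of all genes were higher and 16.7% lower. In fatty acid synthesis and desaturation 4 of 6 genes were higher: the desaturases Scd2 (3.76 ± 0.37) and Scd1 (2.05 ± 0.47), the fatty acid synthase Fasn (2.04 ± 0.54) and the acetyl-CoA carboxylase Acaca (1.94 ± 0.38). Scd2 averaged 3860 CPM in sorted oligodendrocyte nuclei, against 379 CPM in sorted neuronal nuclei. The elongases Elovl5 (2.19 ± 0.49) and Elovl6 (1.98 ± 0.49), the desaturase of the ceramide backbone Degs1 (1.77 ± 0.42) and the carrier Slc13a3 (3.15 ± 0.56), which takes up N-acetylaspartate, were higher as well. Elovl6 stood at 1.23 without replicate 36 (adjusted p = 0.00222).

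The 3 genes lower than in neurons were Cers6, Ugcg and Sptssb. Cers6, a ceramide synthase for shorter chains, averaged 12.4 CPM in sorted oligodendrocyte nuclei, against 299 CPM in sorted neuronal nuclei (-4.24 ± 0.53, adjusted p = 3.11e-05). Ugcg, which makes glucosylceramide and so draws on the same ceramide as Ugt8a, averaged 23.4 CPM in sorted oligodendrocyte nuclei, against 186 CPM in sorted neuronal nuclei (-2.71 ± 0.67, adjusted p = 0.00787). Sptssb, a small subunit of serine palmitoyltransferase, averaged 0.357 CPM in sorted oligodendrocyte nuclei, against 10.2 CPM in sorted neuronal nuclei (-4.17 ± 0.99, adjusted p = 0.00622).

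Against sorted astrocyte nuclei 1 of 44 pathway genes was higher and 6 were lower, where 7.49% of all genes were higher and 9.62% lower, with a median of -0.524, against -0.108 over all genes tested. Elovl6 was higher (1.68 ± 0.49, adjusted p = 0.0252), or 0.92 without oligodendrocyte replicate 36 (adjusted p = 0.0222). Its call was lost without astrocyte replicate 6, 30 or 32 (adjusted p up to 0.0871), with males only (0.12) and with females only (0.344). Elovl2, an elongase of polyunsaturated chains, averaged 6.33 CPM in sorted oligodendrocyte nuclei, against 629.6 CPM in sorted astrocyte nuclei (-6.46 ± 0.81), and the ceramide synthase Cers1 7.85 CPM, against 147 CPM (-4.11 ± 0.78). The dehydratases of the elongation cycle Hacd2 (-3.24 ± 0.44) and Hacd3 (-2.27 ± 0.41), the sphingolipid activator precursor Psap (-1.20 ± 0.37) and Slc13a3 (-3.02 ± 0.53) were also lower than in astrocytes. Slc13a3, the carrier upstream of Aspa, thus had its highest level in sorted astrocyte nuclei, at 229.9 CPM, with 24.1 CPM in sorted oligodendrocyte and 3.58 CPM in sorted neuronal nuclei. Elovl6 and Slc13a3 were the pathway genes called in both comparisons.

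**Figure D5:**
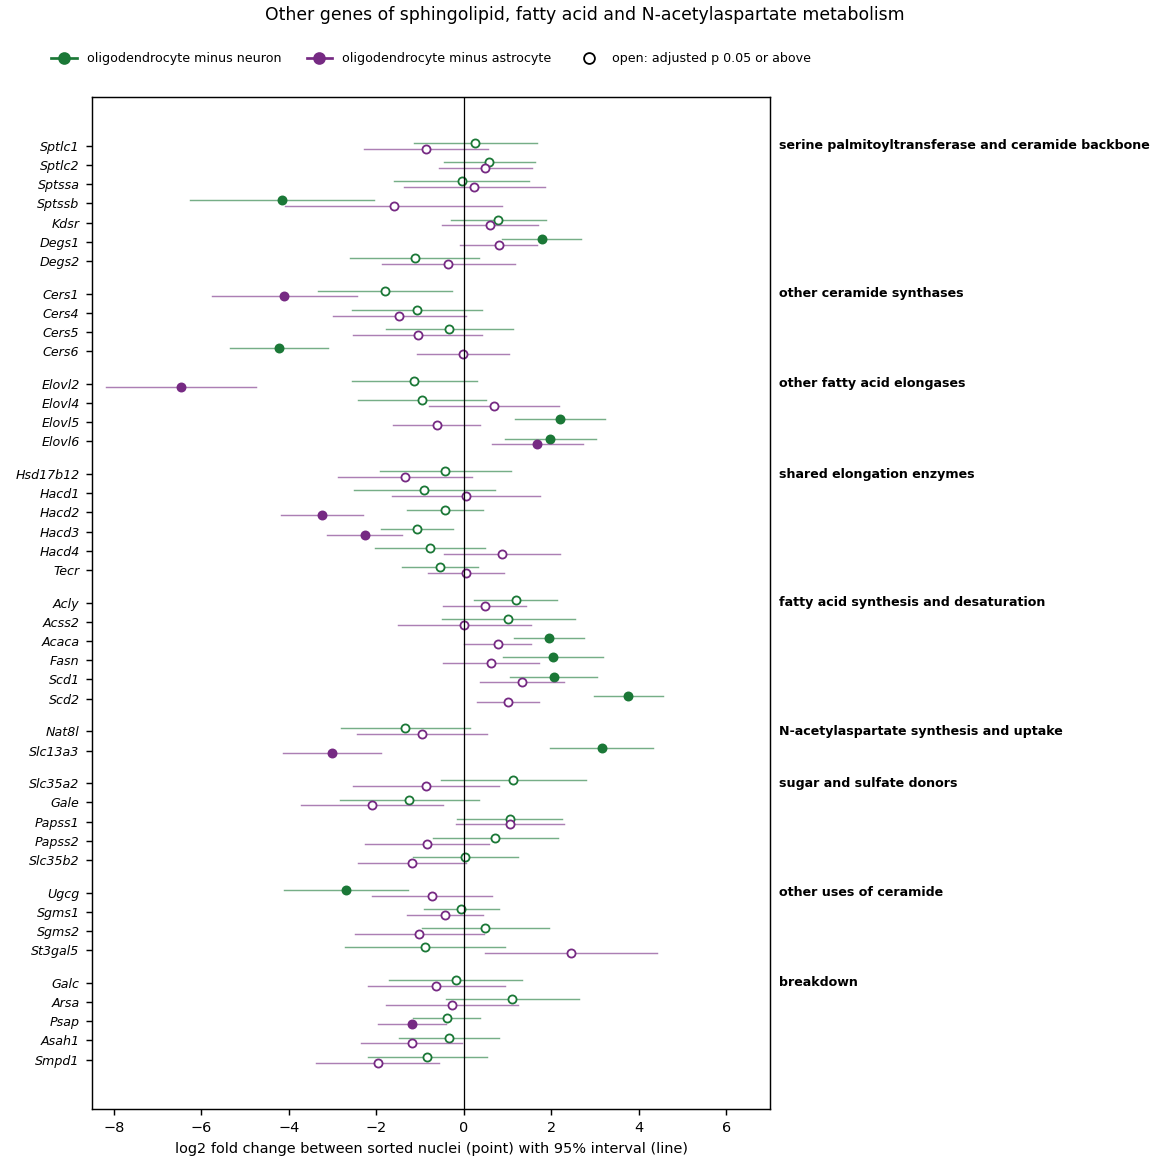
Log2 fold changes of tested pathway genes (1 not drawn), grouped by role, in sorted oligodendrocyte nuclei against neuronal and astrocyte nuclei (points) with 95% intervals (lines), with open points where the adjusted p was 0.05 or above. Scd2 lies farthest to the right against neurons at 3.76, and Elovl2 farthest to the left against astrocytes at -6.46.

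Between presort nuclei and cytoplasm 12 of 35 pathway genes tested were higher in nuclei and 2 lower, where 20.6% of all genes were higher and 29.8% lower, with a median of 0.63, against -0.0978 over all genes tested. The ceramide synthases Cers4 (1.48 ± 0.61), Cers5 (1.57 ± 0.36) and Cers6 (1.35 ± 0.38) were higher in nuclei together with Cers2, 3 of 4 tested on the list. The ATP citrate lyase Acly (-2.33 ± 0.41) and the backbone desaturase and hydroxylase Degs2 (-1.40 ± 0.52) were lower in nuclei, though presort and cytoplasmic ranges overlapped for both. The 2 cytoplasmic libraries disagreed for Degs2, at 13.45 and 112.5 CPM, and for Cers4, at 1.345 and 20.08 CPM. The lowest presort value of Cers4 was 18.21 CPM, so its ranges overlapped too.

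The pattern of each member over the 26 libraries was compared with that of 15145 genes by Pearson's r on log2(CPM + 1). Libraries share cell type, depth and kit, so these values describe likeness only. Among the 3 genes most like Ugt8a were Mal (r = 0.973) and Tspan2 (0.963), and Fa2h was most like Myrf (0.978), Efnb3 (0.965) and Mag (0.963). Mal and Mag encode proteins of the myelin membrane, and Myrf is a transcription factor of myelinating oligodendrocytes. Aspa was most like Gatm and Anln (0.912 each) and Dock5 (0.896). Cers2 and Elovl1 were among the 3 nearest to each other (0.934), beside Tmbim1 (0.937) and Atp11a (0.918) for Cers2 and Aph1a (0.936) and Gprc5b (0.923) for Elovl1. Without sorted oligodendrocyte replicate 36, Elovl1 had 0.929 with Cers2, 0.892 with Aph1a and 0.869 with Gprc5b. Elovl7 was most like ENSMUSG00000090828 (0.92), Wnk1 (0.919) and Erbin (0.918), and Gal3st1, with its many zero counts, reached 0.79 with Dnajb2, 0.788 with Gjb1 and 0.753 with Pacs2. Among the members, the highest likeness was that of Cers2 with Elovl1, followed by Ugt8a with Fa2h (0.924), and the lowest that of Gal3st1 with Elovl1 (0.293).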

How the data were processed

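Per the labels' protocols, RNA was isolated by Trizol and DNase, cleaned with Qiagen MinElute and turned into libraries by the NuGEN kit Ovation RNA-seq V2. The submitters' processing notes name edgeR, STAR, Bowtie2, Trimmomatic and bedtools. No version, genome build, counted region or sorting method is stated there. The authors deposited raw counts, whole numbers per gene and library with no normalization. The kit as described marks neither strand nor molecules, so limits given for 0 counts (3 counts) cover counting error only. Gene symbols came from GENCODE M21, in which 26495 of 27501 identifiers matched.

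Counts were tested with edgeR 4.0.16 in R 4.3.3 (TMM, filterByExpr with a minimum count of 10, quasi-likelihood F test, two-sided), and p-values were adjusted over all genes tested by the Benjamini-Hochberg method at 0.05. The scripts were tested on simulated data. The comparisons of sorted types shared 1 fit over 12 libraries, each sort within its line used 8, sort effects between lines 24, and presort nuclei with cytoplasm 14. Standard errors and 95% intervals were derived from the F statistic. Each sample came from 1 mouse and presort nuclei from each mouse, per the design text. No label pairs sorted and presort libraries, so these were tested as independent. Taking consecutive numbers of 1 line and sex as pairs was an alternative chosen after seeing the data. CPM are per total counts. A gene was named if it was a member, 1 of the 3 genes most like a member, or a pathway gene called in both oligodendrocyte comparisons, and other pathway genes called there or in cytoplasm were named after their values were seen. Of the genes this covers, 2 are not reported here by name. Members, lists and tests were chosen with earlier results of these data known. DESeq2 1.42.0, RLE scaling, no filter, single sexes, a fit of all nuclear libraries and leaving out each library were the alternatives, with the lines of the cytoplasmic libraries alone as another for that comparison.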

Additional observations from a re-analysis of the deposited data

Results flagged for a closer look

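Of 42 sets of 4 libraries (7 genes in 6 nuclear groups), 6 held a library far from the other 3. For normally distributed values chance flags about 5%, or about 2 sets. CPM that rest on 0 or few counts need not follow that rate, so the flags are a description. In sorted oligodendrocyte replicate 36, Fa2h was at 1630 CPM, against 856 to 955 CPM in the other 3, and Elovl1 at 1572 CPM, against 273 to 309.9 CPM. In sorted astrocytes, Fa2h was at 29.8 CPM in replicate 30 (4 counts), against 5.47 to 9.38 CPM, and Gal3st1 at 24.3 CPM in replicate 6, with 0 counts in the others. Among presort libraries, Gal3st1 was at 54.6 CPM in oligodendrocyte line replicate 35 (12 counts), against 0 to 6.38 CPM, and Elovl1 at 109.1 CPM in astrocyte line replicate 31, against 46.4 to 52.0 CPM.

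The effect of the sort differed between mouse lines by a test of the difference itself (edgeR, adjusted p under 0.05 for each). On the log2 scale, the oligodendrocyte line exceeded the neuron line by 7.13 for Ugt8a, 7.44 for Fa2h, 5.603 for Gal3st1, 4.67 for Cers2, 7.19 for Aspa, 6.55 for Elovl1 and 5.30 for Elovl7. It exceeded the astrocyte line by 6.70 for Ugt8a, 7.52 for Fa2h, 2.91 for Cers2, 5.25 for Aspa, 4.15 for Elovl1 and 4.65 for Elovl7. Without sorted oligodendrocyte replicate 36, Elovl1 stood at 4.87 against the neuron line and 2.33 against the astrocyte line, and Fa2h at 6.80 and 6.88. Without presort oligodendrocyte line replicate 35, Gal3st1 stood at 8.21 against the neuron line, and without presort astrocyte line replicate 29, Ugt8a stood at 5.96 against the astrocyte line.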

How the results depend on the processing

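Of 1272 values of single members under alternatives, 1193 kept their direction and side of the threshold, 41 lost a call, 21 gained one and 17 changed sign. Fits in which a member was below the filter or had no adjusted p are not among these values, so a call missing for that reason is not counted as lost. The nuclear groups share no replicate number, while the number 1 occurs in both the presort neuron line and cytoplasm. Presort and sorted libraries of 1 line and sex have consecutive numbers in the labels, which do not say that these mark 1 mouse, and such pairs were used as a replicate block in an alternative chosen after seeing the data. The deviations of such pairs from their group means correlated across genes at 0.199 to 0.324 in the neuron line, -0.000747 to 0.174 in the oligodendrocyte line and 0.0282 to 0.132 in the astrocyte line. Other pairs reached 0.0448 in the oligodendrocyte line and 0.111 in the astrocyte line. In the neuron line other pairs of 1 sex had 0.07 to 0.206, and pairs across the sexes -0.254 to -0.122. Whether consecutive numbers mark 1 mouse was not tested. With the replicate block, 1 member was higher after the astrocyte sort (0 without it), where 12.4% of genes were (13.7%). After the oligodendrocyte sort 6 were higher (6), where 2.33% of genes were (5.12%). After the neuronal sort 6 were lower (5), where 8.2% of genes were (5.1%). The block changed the calls on Elovl1 in the astrocyte line, Elovl7 in the neuron line and Gal3st1 between the oligodendrocyte and neuron lines, and no other member's call. The causes of the changes below were not tested, except that fits of 1 sex hold fewer samples. With females only, the members higher in oligodendrocytes numbered 2 against astrocytes (6 with all libraries), those higher in astrocytes than neurons 0 (3), those higher after the oligodendrocyte sort 0 (6), and those higher in presort nuclei than cytoplasm 4 (2). Of all genes, 0.379%, 0.288%, 0% and 25.2% were higher with females only, in the same order. With males only, the members lower after the sort numbered 1 in the astrocyte line (2) and 1 in the neuron line (5), and 2 were lower in nuclei than cytoplasm (0), where 7.16%, 1.14% and 26.4% of all genes were lower. Against cytoplasm, each fit of 1 sex holds 1 cytoplasmic library, so its calls have no replicate there. With no filter on low counts, 1 member, Gal3st1, was higher in males (0), where 7 of all genes were (4). In all, 98 fits left out 1 library each. Among them the members higher after the astrocyte sort ranged from 0 to 1, and those lower after it from 1 to 3. Of all genes, 893 to 1847 were higher and 943 to 1841 lower there, with 1514 and 1679 in all libraries.

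On the log2 scale, sign changes were seen as follows. Fa2h, astrocytes against neurons, was 1.49 with females only and ranged from -0.43 to 0.29 with 1 library left out. Gal3st1 there ranged from -4.93 to 2.86, where the fitted value against libraries at 0 is no bound, and in the astrocyte line it was 1.01 with males only. Cers2 in the astrocyte line ranged from -0.015 to 0.54. In nuclei against cytoplasm, Ugt8a was 1.31 and Aspa 1.84 with females only, Elovl7 was -0.69 with males only, and with 1 library left out Ugt8a ranged from -1.44 to 0.99, Aspa from -0.99 to 1.64 and Elovl7 from -0.14 to 1.46. Fa2h between sexes ranged from -0.39 to 0.52.

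For pathway genes against neurons, 1 was higher and 0 lower with females only (9 and 3 with all libraries), where 0.863% and 0.0681% of all genes were. With DESeq2 5 were lower, where 2288 of all genes were (1395). With males only 8 were lower and in the fit of all 24 nuclear libraries 5, where 13.8% and 16.3% of all genes were. With 1 library left out 8 to 15 were higher and 3 to 7 lower, where 1214 to 2544 and 1099 to 2263 of all genes were. Against astrocytes, 3 were higher with no filter (1), where 1193 of all genes were (976), and 7 in the fit of all 24, where 15.1% were. With females only 0 were higher and 0 lower (1 and 6), where 0.379% and 0.129% of all genes were. With 1 library left out 0 to 4 were higher, where 715 to 1588 of all genes were. In nuclei against cytoplasm, 5 were lower with no filter (2), where 4198 of all genes were (2306). Without presort astrocyte line replicate 29, 7 were higher (12), a fit for which the share of all genes is not given.

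DESeq2 gave no adjusted p for Elovl1 in 6 comparisons. The share of called genes that were higher was 43.1% with DESeq2, 50.3% with RLE scaling in edgeR and 53.6% with TMM for oligodendrocytes against neurons. It was 38.3%, 51.4% and 61.3% for the oligodendrocyte sort, and 41.7%, 45.3% and 52.2% for the sort effect of the oligodendrocyte over the astrocyte line. The median of all genes moved by -0.118 with DESeq2 and -0.116 with RLE scaling in the oligodendrocyte sort, and by -0.171 and -0.167 in that sort effect. Over all alternatives the genes called higher in oligodendrocytes against neurons ranged from 114 (females only) to 2544 (without replicate 36), with 1610 in all libraries. Depth limits the presort libraries most, where a member often rests on fewer than 10 counts, and only 2 cytoplasmic libraries were measured.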
